A study of Mus musculus with 6 samples.

Results

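The transcripts followed here were those of the interleukin-13 (IL-13) receptors and the type 2 alarmins, 8 genes of the 34745 listed for the study: Il13ra1, Il13ra2, Il4ra, Il2rg, Stat6, Il1rl1, Il33 and Tslp. They were found by gene symbol, and each symbol had 1 row. The set was selected on earlier results of the same comparison, so the fragment counts of fibroblasts alone and of cocultured fibroblasts helped to choose it. The differences of these 8 genes between the groups are therefore given as description: no p-value is printed for them, and where the fit over all genes called one higher or lower, the call describes the gene and is not evidence about the set.

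IL-13 and IL-4 bind a receptor made of the IL-13 receptor alpha 1 chain (Il13ra1) and the IL-4 receptor alpha chain (Il4ra). This receptor signals through the transcription factor STAT6 (Stat6). The IL-13 receptor alpha 2 chain (Il13ra2) binds IL-13 tightly but has a short intracellular tail and is best known as a decoy, while the common gamma chain (Il2rg) completes a second IL-4 receptor, mainly on blood cells. IL-33 (Il33) and thymic stromal lymphopoietin (Tslp) are alarmins, cytokines of barrier and stromal cells that call up type 2 immunity, and IL-33 acts through ST2 (Il1rl1), whose gene makes a membrane receptor and a soluble form that captures IL-33.

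Primary renal fibroblasts from wild-type mice, which make connective tissue matrix, were cultured alone (3 libraries) or for 24 h below a 0.4 μm transwell insert that held Th17 cells (3 libraries). The Th17 cells, helper T cells that make IL-17, had been induced from CD4+ T cells on anti-CD3 and anti-CD28 with IL-1β, IL-6, IL-23 and antibody to interferon-γ. Only the fibroblasts in the lower chamber were sequenced as bulk RNA. The sources did not state an insert without T cells for the controls, the age or sex of the mice, or whether libraries came from separate animals or wells, so SD, SE and p measure the spread between these libraries, which may be technical.

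Libraries held 12050529 to 13209581 fragments counted to genes, and 3 fragments corresponded to 0.223 to 0.254 CPM, the count per common library size after TMM scaling. Both groups lay apart on the first principal component (76.8% of variance). Fibroblast markers summed to 3.41e+04 to 3.60e+04 CPM alone and 1.42e+04 to 1.59e+04 CPM after coculture, with 9 of 10 lower, so the cells carried their labelled markers in both groups. Of 14 T cell markers, 11 had at most 3 counts in every library, and Cd3d, Cd8a, Il17a, Il17f and Ccr6 were at 0 in all. The T cell receptor gene Trac had 20 to 41 counts in every library of both groups, Lck had 49 to 68 alone and 23 to 34 after coculture, and Cd3e had 6 in the third cocultured library and at most 1 in the others. In bulk RNA, fewer cells of a type and less RNA per cell cannot be told apart.

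The sequence upstream of the start site is shown for the pair of IL-13 receptors on the X chromosome that moved in opposite directions, and for ST2 and its ligand. Each is the 250 bases before a RefSeq start site, 5′ to 3′ on the gene's strand, build GRCm38.p6, with motif matches in capitals. The windows lie at chrX:147429193-147429442 (minus strand) for Il13ra2, chrX:36111858-36112107 (plus) for Il13ra1, chr1:40429320-40429569 (plus) for Il1rl1, at the more distal of its 2 listed start sites, and chr19:29924863-29925112 (plus) for Il33, also the more distal of 2.
Il13ra2: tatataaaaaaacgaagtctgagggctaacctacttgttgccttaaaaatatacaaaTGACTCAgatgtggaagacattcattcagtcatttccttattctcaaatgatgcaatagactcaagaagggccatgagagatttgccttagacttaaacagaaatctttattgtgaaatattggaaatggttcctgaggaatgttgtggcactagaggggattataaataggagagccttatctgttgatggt
Il13ra1: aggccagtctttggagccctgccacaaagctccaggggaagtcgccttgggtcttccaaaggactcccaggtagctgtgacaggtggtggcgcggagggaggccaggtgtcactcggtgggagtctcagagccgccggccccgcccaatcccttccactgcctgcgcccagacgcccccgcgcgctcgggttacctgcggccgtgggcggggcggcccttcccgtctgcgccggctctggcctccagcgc
Il1rl1: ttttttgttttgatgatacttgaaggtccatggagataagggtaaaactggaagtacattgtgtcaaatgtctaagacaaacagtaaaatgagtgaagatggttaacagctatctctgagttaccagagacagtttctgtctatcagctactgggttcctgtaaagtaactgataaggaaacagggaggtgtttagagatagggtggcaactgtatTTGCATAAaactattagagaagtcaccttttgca
Il33: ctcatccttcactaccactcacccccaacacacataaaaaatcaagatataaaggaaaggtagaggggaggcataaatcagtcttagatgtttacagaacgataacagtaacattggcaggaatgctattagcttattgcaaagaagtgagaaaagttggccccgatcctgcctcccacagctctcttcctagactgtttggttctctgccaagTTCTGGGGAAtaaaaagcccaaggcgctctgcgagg

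Motifs were searched on both strands in windows that also took in the first 50 transcribed bases (300 bases, 9 windows for 7 of the 8 genes). The letters were TTCNNNNGAA (the spacing preferred by STAT6), TTCNNNGAA (other STAT proteins), TGANTCA (AP-1), TTGCNNAA (C/EBP) and GGGANNTTCC (NF-kB), and no pair of matches overlapped. Il13ra2 held an AP-1 match, TGACTCA, at −193 to −187 from the start site. The distal window of Il1rl1 held a C/EBP match, TTGCATAA, at −34 to −27, and its other window held none. The distal window of Il33 held a STAT6-type match, TTCTGGGGAA, at −36 to −27, and its other window held a C/EBP match at −85 to −78. The windows of Il13ra1, Il4ra, Il2rg and Stat6 held none of the 5 motifs. Among 32851 RefSeq windows of this length, the shares with a match were 6.95% for TTCNNNNGAA, 8.3% for TTCNNNGAA, 7.81% for TGANTCA, 10.8% for TTGCNNAA and 1.47% for GGGANNTTCC. A match describes letters in these windows and is not a measured binding site. Counts per gene do not show which of the listed start sites of Il1rl1 or Il33 was used in these fibroblasts.

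Base composition also differed between these windows. Il13ra2 had 1 CpG and 37.7% G and C, and the distal window of Il1rl1 had 1 CpG and 38.7%. The proximal window of Il1rl1 and the window of Il2rg had 3 CpG each, and the windows of Il33 had 6 and 5. Il13ra1 had 28 CpG and 71% G and C, a count reached by 14.2% of all windows, and Il4ra had 25 CpG and 62%, reached by 18.4%. Stat6 had 8 CpG, and the median over all windows was 7.

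Of the 8 genes, 4 were higher after coculture (Il13ra2, Il1rl1, Il33 and Il2rg), 3 were lower (Il13ra1, Il4ra and Tslp) and 1 (Stat6) was not called at an adjusted p below 0.05. Over the 13088 genes tested, 17.1% were called higher and 20.0% lower by this rule. With a change above 2-fold asked for as well, 2 of the 8 were higher and 2 lower, against 3.87% and 7.78% of all genes. The 2-fold line passed through the set: Tslp and Il13ra1, at log2 fold changes of −1.02 and −1.01, lay just past it, and Il33 at 0.9997 and Il4ra at −0.97 lay just short. For 7 of the 8, each library of one group lay above or below all of the other group, which held for 50.4% of all genes. The median log2 fold change was 0.34 for the 8 genes and 0.0038 for all genes tested. Since the contrast helped to choose the genes, nothing is read from these counts.

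**Figure D1:**
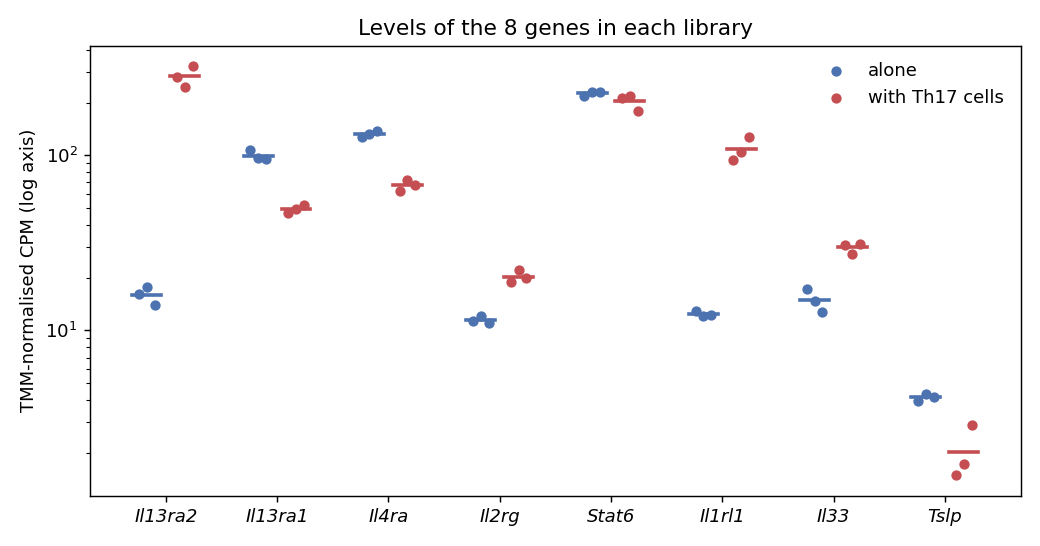
TMM-normalised CPM (log axis) of the 8 genes in each library of fibroblasts alone (blue) and with Th17 cells (red), points being libraries and short lines the means of 3. The groups lie apart for every gene but Stat6, with the widest gap for Il13ra2, from a mean of 16.0 to 283 CPM.

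Il13ra1 (ENSMUSG00000017057, chrX:36112110-36171259, plus strand), the signalling IL-13 chain, was at 107, 96.2 and 95.7 CPM in fibroblasts alone and at 47.0, 49.2 and 51.9 CPM after coculture. All 3 cocultured libraries lay below all libraries cultured alone. The mean fell from 99.5 ± 6.12 to 49.4 ± 2.45 CPM (SD, n = 3 each), a log2 fold change of −1.01 (SE 0.076).

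Il4ra (ENSMUSG00000030748, chr7:125552120-125579474, plus strand), its partner chain, was at 127, 133 and 137 CPM alone and at 62.7, 72 and 67.5 CPM after coculture. The groups did not overlap, and the log2 fold change of −0.97 (SE 0.072) was close to that of Il13ra1. The ratio of Il13ra1 to Il4ra, on the length-scaled FPKM values, was accordingly 1.86 ± 0.18 alone and 1.81 ± 0.109 after coculture (SD, n = 3), and its ranges overlapped. The length behind the FPKM of Il4ra was 9158 bases, against 5256 for its longest transcript, and that of Il13ra1 was 3712 by either. The height of this ratio therefore depends on the lengths used, and which chain was the more abundant is not read from it. Both chains of the receptor were thus lower by a like amount in the same libraries. An antisense gene that shares 571 exon bases with Il4ra, Gm44876, had no count in any library.

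Il13ra2 (ENSMUSG00000031289, chrX:147383476-147429192, minus strand), the decoy chain, was at 16.2, 17.8 and 13.9 CPM alone and at 281, 247 and 322 CPM after coculture. The lowest cocultured library was far above the highest library cultured alone. The mean rose from 16.0 ± 1.92 to 283 ± 37.5 CPM (SD, n = 3 each), 17.7-fold, with a log2 fold change of 4.15 (SE 0.127). This was rank 32 from the top among 13088 genes. By FPKM the gene stood between places 5046 and 5821 of all genes in libraries cultured alone and between places 304 and 365 after coculture.

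The balance between both IL-13 binding chains turned over. The FPKM ratio of Il13ra2 to Il13ra1 was 0.219, 0.266 and 0.21 in fibroblasts alone and 8.59, 7.21 and 8.92 after coculture. Signalling-chain transcripts were thus the more abundant in each library cultured alone, and decoy-chain transcripts in each cocultured library. Means were 0.231 ± 0.03 and 8.24 ± 0.906 (SD, n = 3).

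Il2rg (ENSMUSG00000031304, chrX:101264378-101268255, minus strand), the common gamma chain, was at 11.3, 12.1 and 11.0 CPM alone and at 18.8, 22 and 19.8 CPM after coculture. The groups did not overlap, and the level rose 1.76-fold (log2 fold change 0.82, SE 0.111). Set against Il4ra within each library, its FPKM ratio moved from 0.218 ± 0.014 to 0.755 ± 0.0159 (SD, n = 3), so Il4ra was still the higher by FPKM in every library. The lengths behind the FPKM were above those of the longest transcripts, 3633 against 1670 bases for Il2rg and 9158 against 5256 for Il4ra. How far Il4ra lay above Il2rg therefore depends on the lengths used. Il2rg is also a gene of blood cells, so their markers were read beside it. The 12 macrophage markers summed to 59.2 to 63.0 CPM alone and 19.9 to 21.1 CPM after coculture. Of the 6 tested, 5 were lower, and Adgre1 went from 71, 47 and 55 counts to 0 in all cocultured libraries. Ptprc, in the same list, went from 14, 12 and 11 counts to 0. The T cell markers given above summed to 6.21 to 8.69 CPM alone and 4.79 to 5.58 CPM after coculture. Gm20489, which shares 728 exon bases on the same strand, had no count in any library, and how shared fragments were assigned was not stated.

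**Figure D2:**
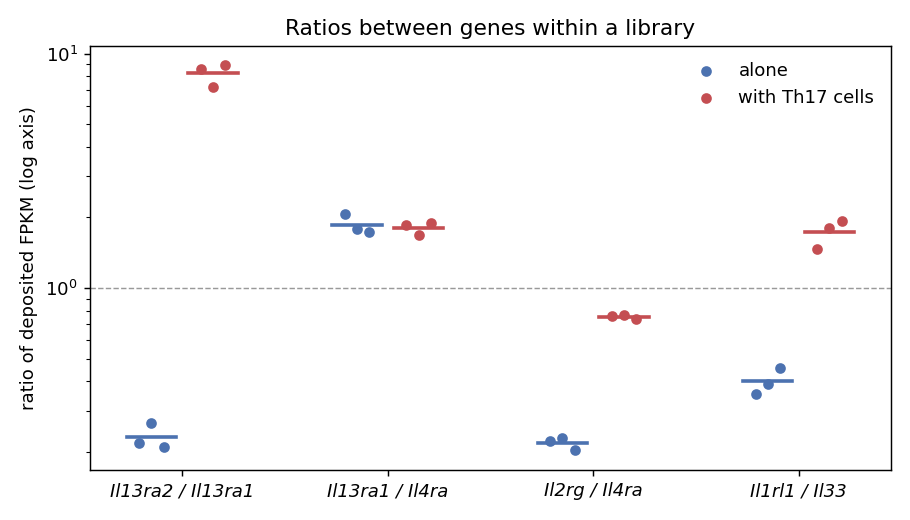
Ratios of deposited FPKM between pairs of genes within each library (log axis; points are libraries, lines are means of 3, the dashed line marks equal levels). Il13ra2 / Il13ra1 passes from 0.231 to 8.24 and Il1rl1 / Il33 from 0.40 to 1.73, both across the dashed line, while Il13ra1 / Il4ra is at 1.86 and 1.81. The height of a ratio depends on the gene lengths behind the FPKM.

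These 3 genes, Il13ra1, Il13ra2 and Il2rg, lie on the X chromosome. The 437 X-linked genes tested had a median log2 fold change of −0.0040, and 15.1% of them were called higher and 17.2% lower. The levels of the 3 genes thus moved in different directions on a chromosome whose median was near 0. Of 5 sex-linked check genes, none was called. Xist had 2215 to 3149 counts and the Y chromosome gene Ddx3y 749 to 969 counts, so every library held transcripts of both.

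Stat6 (ENSMUSG00000002147, chr10:127642986-127660957, plus strand), the transcription factor of this receptor, was at 217, 231 and 229 CPM alone and at 213, 218 and 180 CPM after coculture. The groups overlapped, with the third cocultured library the lowest of the 6. The log2 fold change was −0.15 (SE 0.081), and the gene was not called. Nab2 on the other strand shares 40 exon bases with it and had 1230 to 1866 counts, and strand use in counting was not stated.

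Il33 (ENSMUSG00000024810, chr19:29925114-29960718, plus strand), the alarmin ligand of ST2, was at 17.3, 14.7 and 12.7 CPM alone and at 30.7, 27.4 and 31.3 CPM after coculture. The groups did not overlap, and the log2 fold change was 0.9997 (SE 0.128).

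Il1rl1 (ENSMUSG00000026069, chr1:40429570-40465415, plus strand), the IL-33 receptor ST2, was at 12.9, 12.1 and 12.2 CPM alone and at 94.3, 104 and 127 CPM after coculture. Libraries cultured alone were nearly level, and every cocultured library lay far above them. The mean rose from 12.4 ± 0.437 to 108 ± 16.9 CPM (SD, n = 3 each), 8.76-fold, with a log2 fold change of 3.13 (SE 0.123) and rank 55 from the top. Its FPKM ratio to Il33 moved from 0.40 ± 0.0519 to 1.73 ± 0.243. Counts per gene do not separate membrane from soluble ST2, and the annotation lists 5 transcripts.

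ST2 is also a marker of mast cells, basophils and type 2 innate lymphoid cells. The 9 other markers of those cells summed to 2.03 to 2.79 CPM alone and 15.5 to 25.3 CPM after coculture. Most of that sum was Mcpt8, at 10, 7 and 0 counts alone and 184, 191 and 304 after coculture, with Gata3 at 6 to 10 and 25 to 28 counts. Cpa3, Mcpt4, Fcer1a and Tpsb2 were at 0 in all 6 libraries, Ms4a2 at 0 in all but 1, Kit at 0 in all cocultured libraries, and Hdc was lower.

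Tslp (ENSMUSG00000024379, chr18:32815383-32819799, plus strand), the other alarmin, was the least counted of the 8 genes. It had 51, 55 and 49 counts alone and 20, 22 and 38 after coculture, or 3.96, 4.34 and 4.14 CPM against 1.49, 1.73 and 2.89 CPM. The groups did not overlap, but the third cocultured library lay much nearer to the libraries cultured alone than the others did. The log2 fold change was −1.02 (SE 0.265), and it was −1.36 without that library. The call was lost without the second library of either group.

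Levels of different genes were compared on the deposited FPKM, which scales counts to length. In fibroblasts alone the order was Stat6 (38.2 FPKM), Il13ra1 (26.2), Il4ra (14.1), Il13ra2 (6.06), Tslp (3.58), Il2rg (3.08), Il33 (2.77) and Il1rl1 (1.09), with the ranges of Il2rg and Il33 overlapping. After coculture it was Il13ra2 (112 FPKM), Stat6 (36.0), Il13ra1 (13.6), Il1rl1 (10), Il4ra (7.52), Il33 (5.80), Il2rg (5.68) and Tslp (1.84), with Il33 and Il2rg again overlapping. Il13ra2 thus moved to the top of the order, Il1rl1 from the last place to above Il4ra, and Tslp to the last. The length behind the FPKM was above that of the longest transcript for Il1rl1 (11062 against 5302 bases), Il33, Il4ra, Stat6, Il2rg and Il13ra2, so their FPKM is low beside that of Il13ra1 (3712 bases by either) and Tslp (1133 against 1134 bases). Per base of the longest transcript, Il2rg and Il33 stood above Tslp in fibroblasts alone, and after coculture Il1rl1 stood above Il13ra1 and Il2rg above Il33.

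**Figure D3:**
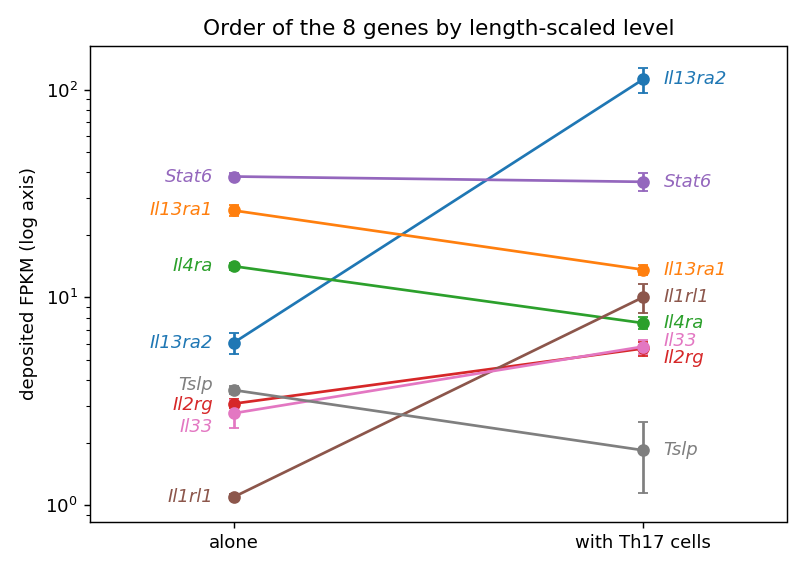
Mean deposited FPKM (log axis; bars are SD, n = 3) of the 8 genes in fibroblasts alone (left) and with Th17 cells (right), joined by gene. Il13ra2 crosses from 6.06 to 112 FPKM, above Stat6, and Il1rl1 from 1.09 to 10, while Il13ra1, Il4ra and Tslp slope down.

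Lists of the surrounding pathway genes were then set beside the 8 genes, here with edgeR's quasi-likelihood test and Benjamini-Hochberg adjustment over all 13088 genes. The lists too were chosen with earlier results of these data known, and the called genes named are those of largest change. Their adjusted p-values therefore describe single genes and are not evidence about the lists. Of 56 further genes, 32 had enough counts to be tested, 8 of them were higher and 4 lower, and their median log2 fold change was −0.05. Beside these counts and those of each list below, 17.1% of all genes tested were called higher and 20.0% lower. Among 5 type 2 cytokines, Il4 and Il13, the ligands of the IL-13 and IL-4 receptors, had no count in any library, nor had Il9 and Il25, and Il5 had at most 2. A count of 0 allows up to 3 counts, 0.223 to 0.254 CPM, in a library. Only the fibroblasts were sequenced, so these counts do not tell whether the Th17 cells above the insert made these cytokines.

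Among 14 tested genes of receptor kinases and signalling, 5 were higher, 1 was lower and 8 were not called, with a median of −0.02. The higher genes were led by feedback inhibitors of cytokine receptors. Cish had 247, 116 and 250 counts alone and 1787, 1089 and 1137 after coculture (log2 fold change 2.63, SE 0.286 and adjusted p = 0.000107 by edgeR), and Socs3 rose by a log2 fold change of 2.53 (SE 0.113 and adjusted p = 3.17e-07 by edgeR). Socs1, the inhibitor most tied to IL-4 and interferon receptors, rose by 0.70 on the log2 scale (SE 0.155 and adjusted p = 0.00663 by edgeR), and Irs2, an adaptor of the IL-4 receptor, by 0.79 (SE 0.114 and adjusted p = 0.000601 by edgeR). The kinase gene Jak1 and the phosphatase gene Ptpn11 were at log2 fold changes of −0.03 and −0.02 (edgeR adjusted p = 0.757 and 0.796), values whose sign turned with library size as the only scaling.

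A list of 7 receptor chains held partners of Il2rg and, beside them, Crlf2 of the TSLP receptor, which does not use the common gamma chain. Of the 7, 3 were tested and 1 was lower, Il15ra, the IL-15 receptor alpha chain, at −1.21 (SE 0.144 and adjusted p = 0.000188 by edgeR). Crlf2 was at −0.25 (edgeR adjusted p = 0.245) and Il2rb at 0.62 (edgeR adjusted p = 0.327), and neither was called. Il7r, which pairs with Crlf2 to bind TSLP, had 16, 7 and 20 counts alone and none after coculture, too few to be tested.

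Below ST2, Il1rap, the chain with which ST2 signals, rose by 0.91 on the log2 scale (SE 0.062 and adjusted p = 4.95e-06 by edgeR). Myd88, the adaptor they share, was lower by contrast, at −1.01 (SE 0.082 and adjusted p = 1.52e-05 by edgeR). The other 9 of 11 tested genes were not called, among them Map3k7 at −0.55 (edgeR adjusted p = 0.079) and Tab2 at −0.06 (edgeR adjusted p = 0.666), and the median was −0.25. Map3k7 had 1594, 751 and 873 counts after coculture, and without the first of these libraries it was called lower, at −0.93 (adjusted p = 7.13e-05 by edgeR).

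Of 19 genes known as STAT6 targets in various cells, 7 were tested, 4 were higher, 1 was lower and 2 were not called, with a median of 0.92, and 9 had at most 3 counts in every library. The higher genes included Cish and Socs1, which were also counted among the receptor kinases and signalling genes above. Ccl11, the eosinophil chemokine eotaxin, had 160, 120 and 170 counts alone and 3932, 3983 and 3971 after coculture (log2 fold change 4.65, SE 0.131 and adjusted p = 3.72e-08 by edgeR). Serpinb2, a plasminogen activator inhibitor, rose by 1.75 on the log2 scale (SE 0.274 and adjusted p = 0.000993 by edgeR), with 9763 counts in the third cocultured library against 4699 and 4260 in the others. Vcam1, an adhesion molecule for eosinophils and lymphocytes, went the other way, from a mean of 1007 to 125 CPM (log2 fold change −3.01, SE 0.058 and adjusted p = 8.56e-09 by edgeR). Postn, the matrix protein periostin, was at −0.04 (edgeR adjusted p = 0.715) and Pparg at 0.92 (edgeR adjusted p = 0.0544), which was called higher under 4 alternatives, among them without the second cocultured library (1.11). Several of these genes also answer to other cytokines.

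**Figure D4:**
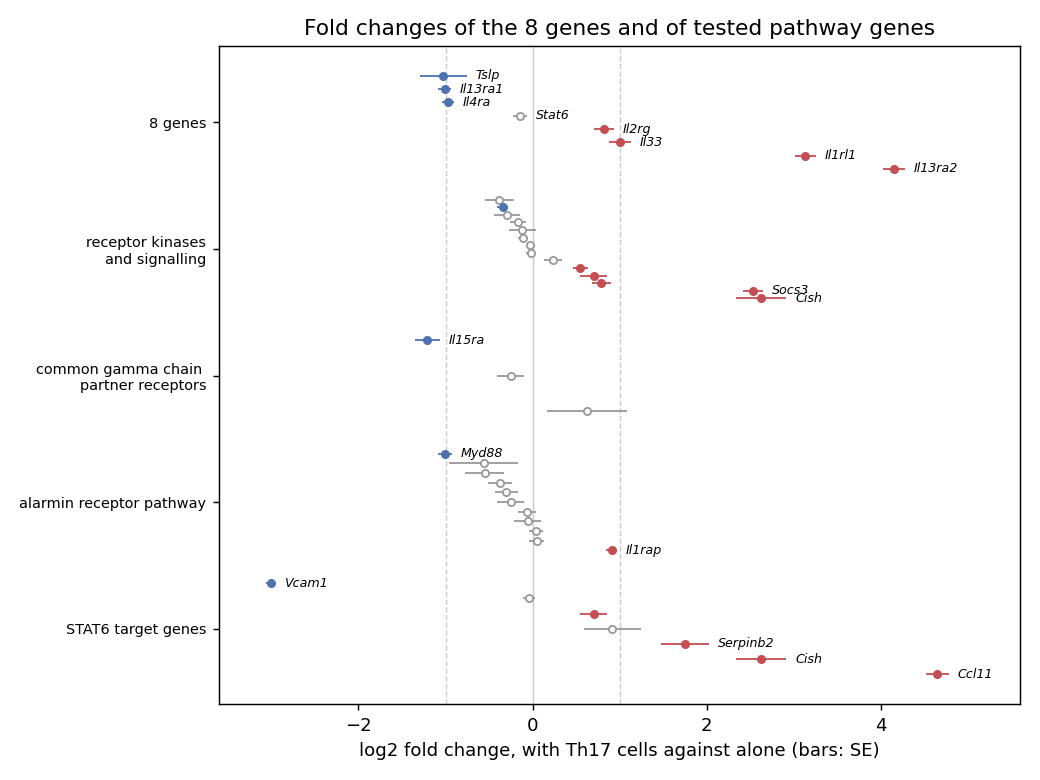
Log2 fold change (with Th17 cells against alone; bars are SE) of the 8 genes and of the tested genes of 4 pathway lists, each point a gene, red where higher and blue where lower at an adjusted p below 0.05, open grey where not called, with dashed lines at 2-fold. Il13ra2 (4.15) and Il1rl1 (3.13) lie far right of the dashed lines, as do Ccl11 (4.65) and Cish (2.63), and Vcam1 (−3.01) lies far left.

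The pattern over the 6 libraries was compared with that of 11239 genes by the root mean square difference of centred log2 CPM. Nearest to Il13ra2 were Grem1 (0.084), Dio2 (0.181) and Gm2115 (0.213). Grem1, a secreted BMP antagonist, went from 145 to 2345 mean CPM. Nearest to Il1rl1 were the collagenase gene Mmp13 (0.102), the protease inhibitor gene Tfpi2 (0.111) and Serpina3g (0.131). The genes near Il13ra2 had log2 fold changes of 4.02, 4.26 and 3.83 in this order, and those near Il1rl1 2.97, 2.94 and 2.88. The measure takes in the group difference, which helped to choose the 8 genes, so likeness beyond that difference was not tested.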

How the data were processed

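RNA of 6 libraries was sequenced on an Illumina NovaSeq. Per the study's methods and the submitters' processing notes, Seqtk filtering by the authors was followed by alignment to mm10 with HISAT2 2.0.4 and by StringTie 1.3.3b. They deposited raw fragment counts per gene and, beside each count, FPKM, which the authors scaled to gene length and library total. Strand use and the handling of fragments that fit several genes were not stated. Positions are the deposited ones. Of 34344 gene identifiers found in GENCODE M21 (GRCm38), 99.7% overlapped their annotated position. Samples were grouped by title.

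Counts were tested in R 4.3.3 with edgeR 4.0.16: filterByExpr (minimum count 10), TMM, glmQLFit and glmQLFTest with Benjamini-Hochberg adjustment, on all genes. A call was an adjusted p below 0.05, and the threshold of the closing part adds a change above 2-fold. The common dispersion was 0.0136. SE is the log2 fold change over the square root of F, and the scripts were tested on simulated data. The floor of 3 counts covers counting error only. The 8 genes and the lists were chosen with earlier results of these data known. Of each list, the text names up to 4 called genes of largest change (mean count of 50 or more in the group where it was higher) and up to 2 uncalled genes of highest mean CPM, then the 3 genes of nearest pattern to the 2 members of largest change. Other genes named, in the low-count and marker sentences, were chosen after their values were seen. Alternatives were DESeq2 1.42.0, other scalings, other filters, each library left out, a replicate block, limma 3.58.1 on log2(FPKM + 1), glmTreat and other lengths. Promoters were RefSeq's. Python 3.11.15, pandas 2.3.3 and matplotlib 3.10.9 were used.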

Additional observations from a re-analysis of the deposited data

How the results depend on the processing

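Over 14 alternatives, 7 of the 8 genes kept direction and call in 14 of 14. Tslp kept its call in 12, with log2 fold changes from −1.36 to −0.84 when single libraries were left out: the call was lost without the second library alone (−0.99) or cocultured (−0.92). Il1rl1 was lowest at 2.39 by limma on log2(FPKM + 1), which shrinks low values. Genes past the threshold numbered 1524, against 626 by limma, 791 by glmTreat and 4856 without the fold limit. Of the 8 genes, 4 were past it, against 2, 2 and 7, and 2 to 5 with single libraries left out (2 without the first cocultured library). Pathway genes past it numbered 7, and 12 without the fold limit. Lower calls in the list below ST2 numbered 1, against 3 without the count filter or with the replicate block and 4 without the first cocultured library. Lower genes were 53.8% of calls, 43.9% by library size only and 44.2% by limma. Map3k7, not called, was called without the count filter (−0.55), with the replicate block (−0.62) and without the first cocultured library, and Pparg by library size only (0.98), with 10 counts asked in every library (0.92), by limma (0.27) and without the second cocultured library. Near-zero changes turned sign by library size only (Jak1 0.0377, Postn 0.0267, Ptpn11 0.0406), by limma (Jak1 0.0371, Postn 0.0230, Ptpn11 0.0379, Tab2 0.0096) and on leaving out libraries (Jak1 −0.0543 to 0.0012, Postn −0.0855 to 0.0369, Ptpn11 −0.0466 to 0.0084, Tab2 −0.188 to 0.0249). The order of levels was kept per implied length, and with the longest transcript, chosen after seeing the data, 5 genes alone and 4 after coculture held their place. Same-numbered libraries did not deviate together (correlations 0.0157, −0.0256 and −0.0036). Paired libraries whose sources differ little could show the same, so whether the numbers pair them is not settled. A replicate block gave 1495 genes and 5 of the 8 past the threshold.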

Other observations

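Some genes of type 2 immunity lay below the count filter and were named after their values were seen. Chil3, a chitinase-like protein of alternatively activated macrophages, had no count in fibroblasts alone and 5, 8 and 6 counts after coculture. Il2ra, the IL-2 receptor alpha chain, had 11, 0 and 1 counts alone and none after coculture, and Ptpn6, a phosphatase mainly of blood cells, had 10, 11 and 10 counts alone and 1, 0 and 8 after coculture. Arg1, Mrc1 and Alox15, further genes of alternatively activated macrophages, had at most 6 counts in any library.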
